A study of Mus musculus with 10 samples.

Results

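The genes described here encode the nuclear-encoded subunits of the mitochondrial respiratory chain and ATP synthase in mouse skin. They were taken by symbol, as genes that begin with Nduf followed by a, b, c, s or v, Uqcr, Cox4 to Cox8 or Atp5, together with Sdha, Sdhb, Sdhc and Sdhd, and that had a summed count of at least 100 over 10 libraries. Of 92 matching symbols, 90 were kept, out of 20611 genes listed. Cox7b2 and Cox8c lay outside the limit with a summed count of 0, and the members nearest to it were Cox6b2 at 357, Cox4i2 at 632 and Ndufs5 at 689. Of the 90, 87 had a summed count of 1000 or more. The letters also take in genes that are not subunits. So the members were divided by role into 36 subunits of complex I, 4 of complex II, 8 of complex III, 11 of complex IV and 15 of complex V in the forms that most tissues use. The rest were 3 muscle isoforms of complex IV (Cox6a2, Cox7a1, Cox8b), 2 other complex IV isoforms and 11 assembly factors or other proteins. Ndufa4, named as a complex I gene, was counted with complex IV, where its protein is now placed.

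Complex I takes electrons from NADH and complex II takes them from succinate, and both pass them to ubiquinone. Complex III hands them on to cytochrome c and complex IV, cytochrome c oxidase, to oxygen, while complex V uses the proton gradient made on the way to form ATP. The subunits studied here are made in the cytosol and imported, and join the few subunits that the mitochondrial genome encodes. Several complex IV subunits exist as pairs of isoforms, in which one form prevails in heart and skeletal muscle and the other in most other tissues. Mouse skin holds a thin sheet of striated muscle, the panniculus carnosus, beneath the fat, so a piece of whole skin can carry muscle RNA.

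The study measured polyadenylated RNA of whole skin by single-end sequencing, with 5 libraries of each genotype: 3 males and 2 females. Klk6+ mice carried Tetos-Klk6, a tetracycline-controlled transgene for mouse Klk6 with a Myc/His tag, and the K5-tTA driver, which acts from the bovine keratin 5 promoter when doxycycline is absent. That promoter is active in keratinocytes of the epidermis and in certain further squamous epithelia. The controls, labelled WT, were littermates with neither transgene or with a single one that is not expressed, and which of these each control was is not given. Lines were kept by backcross to C57BL/6, with F4 animals or later used. Per the labels' protocols, Klk6+ mice were returned to doxycycline chow at 10 to 11 weeks, when they were close to becoming moribund, and tissue was collected at 14 to 16 weeks. This driver is held off by doxycycline, and the labels do not make clear which of the animals sequenced had been returned to it. Nothing in the labels states that each library came from a separate animal, so the p-values measure the spread between these samples.

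The WT libraries held 32798416 to 41970272 counts each, and the Klk6+ libraries 26521019 to 39796511. Levels are given as CPM, the count scaled to library size, and a single count corresponded to 0.0238 to 0.0377 CPM. Klk6 levels were 12.7 to 26.5 CPM in the controls and 10293 to 14773 CPM in the transgenic libraries. It was thus high in all 5 transgenic libraries, whatever their doxycycline history. Of 14861 genes tested, 72.8% were called, 35.1% lower and 37.7% higher in Klk6+, at an adjusted p under 0.05 in edgeR's quasi-likelihood test with Benjamini-Hochberg adjustment and sex as a covariate. So a call is no rare event in this comparison. Markers of other cell types moved with the genotype. Of 20 skeletal muscle markers, 17 were lower and 0 higher, and their summed share of the counts was 6.36 to 9.65% in WT and 0.489 to 0.951% in Klk6+, with no marker at 0. The exceptions were Myh7, Tnnt1 and Tnnc1, which belong to slow fibres. Markers of white adipocytes (6 of 7 lower), fibroblasts (6 of 6), macrophages (5 of 5), smooth muscle (4 of 4) and endothelium (3 of 3) were lower. Of 3 brown adipocyte markers tested, 1 was lower, 1 higher and 1 not called. The summed share of the 4 listed was 0.00271 to 0.00691% in WT and 0.00781 to 0.0283% in Klk6+. By summed share, white adipocyte markers had 0.123 to 0.183% in WT and 0.0512 to 0.0815% in Klk6+, and keratinocyte markers 0.579 to 1.75% and 1.93 to 2.71%. Fibroblast markers varied widely within WT, at 1.20 to 4.24%, against 0.450 to 0.950% in Klk6+. Macrophage markers had 0.0668 to 0.287% in WT and 0.0183 to 0.0812% in Klk6+, with overlapping groups. All 4 neutrophil, 4 sebocyte and 4 proliferation markers were higher, and so were 4 of 7 keratinocyte markers, with 2 lower. Their part in the results below was not tested, and in whole skin fewer cells of a type and less RNA per cell cannot be told apart.

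Among the members themselves, 3 libraries stood apart in their group. WT 3, a male, had the highest median of the 74 ubiquitous subunits in its group, at 0.14 above the WT mean on the log2 scale, and Klk6+ 5, a female, had the lowest of all, at -0.32. Klk6+ 1, a male, had the highest of all, at 0.18, with the next Klk6+ library at 0.01. The other 7 libraries lay between -0.12 and 0.01. WT 3 also had the highest median of the muscle markers, at 0.42 above the WT mean.

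Of the 90 members, all of which were tested, 30 were lower in Klk6+, 19 were higher and 41 were not called. The groups did not overlap for 18 members that were lower and 10 that were higher, against 27.0% and 30.1% of all genes tested (57.0% in either direction). As shares of the members, 33.3% were called lower and 21.1% higher. The median log2 fold change over the members was -0.08, and that over all genes tested was 0.04. Changes were small: 6 members (6.67%) differed by a log2 fold change of 1 or more, against 37.2% of all genes. Those 6 were the 3 muscle isoforms, Cox6a1, Cox8a and the assembly factor Ndufaf2. The ubiquitous subunits together took 1.28% ± 0.0775 (SD, n = 5) of all counts of WT libraries and 1.30% ± 0.128 of those of Klk6+ libraries, and the groups overlapped. The balance of calls moved with the scaling, to 35 lower and 13 higher under upper-quartile scaling, where 38.1% and 33.6% of all genes were called. Without WT 3 and Klk6+ 5, a choice made after seeing the data, 20 were lower and 25 higher (32.6% and 35.8% of all genes), and of the calls above 19 of the 30 lower and all 19 higher remained. As WT 3 was the highest WT library by median and Klk6+ 5 the lowest Klk6+ one, their removal itself moves members toward higher. With Klk6+ 1 left out as well, also chosen after seeing the data, 22 were lower and 23 higher (31.8% and 34.8% of all genes), of which 21 and 18 were among the calls above.

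**Figure D1:**
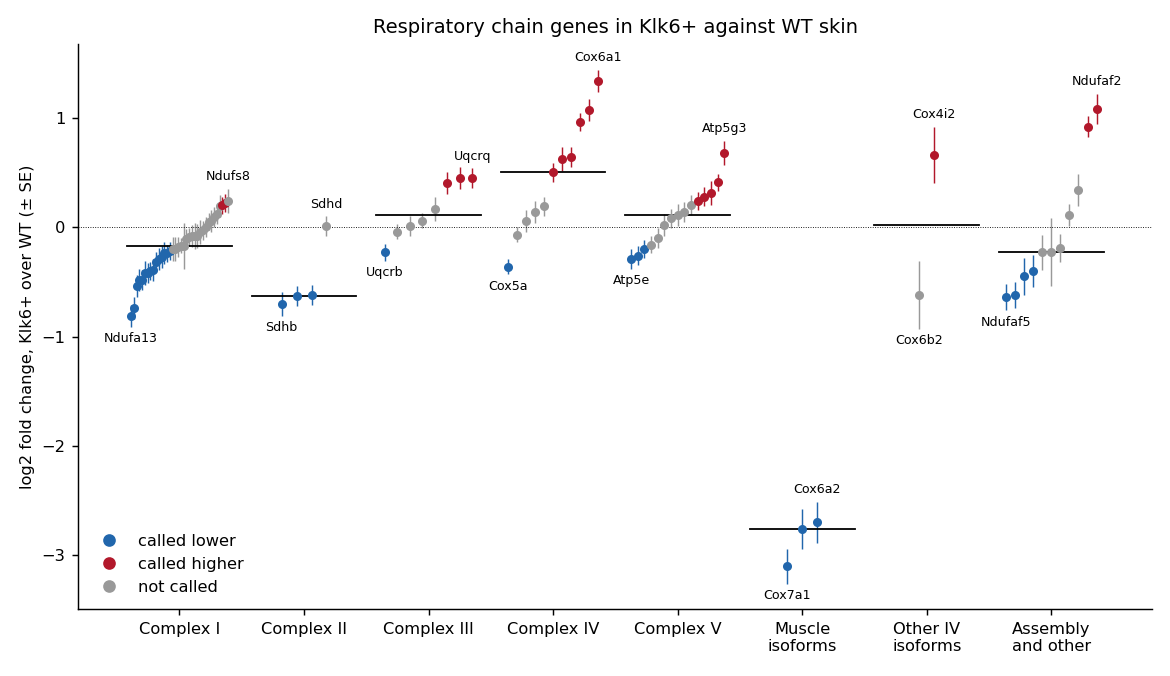
Log2 fold change of each of the 90 members, Klk6+ over WT, with its standard error, arranged by complex; colour gives the call and horizontal lines the group medians. Complex II and the muscle isoforms lie mostly below 0, complex I leans below it, and most complex IV subunits lie above it.

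The largest changes were in complex IV, where muscle isoforms were lower and their ubiquitous partners higher. Cox6a2, Cox7a1 and Cox8b, the heart and muscle forms of subunits VIa, VIIa and VIII, were all lower in Klk6+, by 6.49-fold to 8.57-fold. Cox6a1, Cox7a2 and Cox8a, the forms most tissues use, were all higher, by 1.56-fold to 2.53-fold. On GRCm38, Cox6a2 lies at chr7:128205435-128206387 (minus strand), with an exon that overlaps Itgad, Cox7a1 at chr7:30184144-30186078 (plus strand) and Cox8b at chr7:140898945-140900446 (minus strand). Their partners Cox6a1, Cox7a2 and Cox8a lie at chr5:115345642-115348981, chr9:79755361-79759878 and chr19:7215153-7217616, all on the minus strand.

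Because the partners moved in opposite directions, the 250 bases before the RefSeq start of each (GRCm38.p6) are shown, 5′ to 3′ on the strand of the gene. Capitals mark the matches to 6 motifs searched on both strands. They are NRF1 (GCGCA and GCGC with any base between), the ETS motif of GABPA (CCGGAAG), YY1 (AAGATGGCG), MEF2 (CTA and TAG with any 4 bases between), the E-box (CANCTG) and the TATA box (TATAAA). The Cox6a1 stretch spans chr5:115348959-115349208, Cox7a1 chr7:30183921-30184170, Cox7a2 chr9:79759854-79760103, Cox8a chr19:7217617-7217866 and Cox8b chr7:140900447-140900696. Cox6a2 has no entry in the table of sequences used.
Cox6a1: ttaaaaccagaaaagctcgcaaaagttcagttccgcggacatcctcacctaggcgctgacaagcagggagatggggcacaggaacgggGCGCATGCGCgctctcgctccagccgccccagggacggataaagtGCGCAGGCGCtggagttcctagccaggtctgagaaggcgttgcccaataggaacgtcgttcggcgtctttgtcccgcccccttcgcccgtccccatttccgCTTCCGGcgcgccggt
Cox7a2: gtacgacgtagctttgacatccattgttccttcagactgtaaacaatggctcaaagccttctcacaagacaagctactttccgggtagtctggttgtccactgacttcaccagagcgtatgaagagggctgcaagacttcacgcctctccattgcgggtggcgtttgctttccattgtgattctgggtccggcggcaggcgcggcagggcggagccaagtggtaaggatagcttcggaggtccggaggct
Cox8a: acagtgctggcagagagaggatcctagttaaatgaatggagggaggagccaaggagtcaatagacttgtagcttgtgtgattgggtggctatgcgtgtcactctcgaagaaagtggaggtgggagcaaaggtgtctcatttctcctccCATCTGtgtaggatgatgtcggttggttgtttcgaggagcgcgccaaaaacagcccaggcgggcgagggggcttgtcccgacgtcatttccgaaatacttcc
Cox7a1: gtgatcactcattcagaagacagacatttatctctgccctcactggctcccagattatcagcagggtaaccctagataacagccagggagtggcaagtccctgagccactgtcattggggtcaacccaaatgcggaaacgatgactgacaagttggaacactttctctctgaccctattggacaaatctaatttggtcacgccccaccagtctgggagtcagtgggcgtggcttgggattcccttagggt
Cox8b: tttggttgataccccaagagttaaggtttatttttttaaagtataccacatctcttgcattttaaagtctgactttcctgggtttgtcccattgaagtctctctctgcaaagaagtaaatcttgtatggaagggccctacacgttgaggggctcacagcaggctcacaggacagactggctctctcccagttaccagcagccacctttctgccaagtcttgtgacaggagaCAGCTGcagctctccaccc

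Cox6a1, the member with the highest fold change, holds 2 NRF1 matches and 1 ETS match, which lies near the start. The Cox8a and Cox8b stretches each hold 1 E-box, and those of Cox7a1 and Cox7a2 hold no match. Read on to 50 bases after the start, Cox8a also holds ETS matches at positions -5, cut by the end of the stretch, and 32. Cox8b then holds a further E-box at position 16 and a TATA match at 4. An NRF1 or E-box match can read on both strands at the same place, and a window was counted once per motif. Over the whole window of 300 bases, from 250 before the start to 50 after it, 75 of the 90 members had an entry. An NRF1 match was in 26.5% of the 68 windows of ubiquitous subunits and in 4.603% of all 32851 windows. The ETS motif was in 23.5% against 8.86%, and YY1 in 10.3% against 1.40%. MEF2 was in 1.47% against 3.69%, the E-box in 41.2% against 51.4% and TATA in 8.82% against 13.6%. An NRF1 match was found in 5 of 18 ubiquitous subunits that were lower in Klk6+, in 3 of 15 that were higher and in 9 of 30 not called. For the ETS motif these were 3 of 18, 7 of 15 and 6 of 30, and for YY1 3 of 18, 0 of 15 and 4 of 30. A match describes letters in a window and shows no binding.

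Cox6a2 stood at 206, 202, 248.8, 236 and 269 CPM in WT libraries 1 to 5 and at 40.6, 27.3, 42.2, 24.97 and 43.2 CPM in Klk6+ libraries 1 to 5. The lowest WT library was well above the highest Klk6+ library, and the change was -2.70 ± 0.19 on the log2 scale (SE; adjusted p = 1.15e-06). Cox6a1 went the other way, at 107, 119, 99.0, 99.9 and 88.1 CPM in WT and 285, 281, 264, 266 and 205 CPM in Klk6+. Its groups were also apart, and its change of 1.34 ± 0.10 on the log2 scale (adjusted p = 1.44e-06) was the highest of all members. Per length, in the deposited FPKM (fragments scaled to transcript length and library size), Cox6a2 was above Cox6a1 in every WT library, by a ratio of 1.23 to 2.21, and below it in every Klk6+ library, at 0.0680 to 0.152.

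Cox7a1 stood at 68.1, 53.1, 76.5, 43.4 and 61.1 CPM in WT and 8.73, 6.72, 8.69, 4.78 and 6.56 CPM in Klk6+. It had the lowest fold change of all members (log2 -3.10 ± 0.16, adjusted p = 3.26e-07). Cox7a2 measured 82.4, 81.4, 83.7, 70.1 and 70.5 CPM in WT and 139, 119.8, 128, 124 and 94.9 CPM in Klk6+, where each library was above each WT library. The rise was smaller than that of Cox6a1, at log2 0.64 ± 0.09 (adjusted p = 7.23e-05). Cox8b measured 91.3, 73.6, 104, 69.3 and 93.3 CPM in WT and 14.5, 9.23, 14.5, 9.94 and 15.5 CPM in Klk6+ (log2 -2.76 ± 0.18, adjusted p = 9.93e-07). Cox8a, its partner, had 117, 122, 106, 108 and 105 CPM in WT against 271, 246, 230.1, 248.99 and 179.8 CPM in Klk6+ (log2 1.07 ± 0.10, adjusted p = 8.16e-06). In both pairs the groups did not overlap for either gene.

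Within the Klk6+ group, libraries 2 and 4 had the lowest levels of Cox6a2 and Cox8b, and for Cox7a1 libraries 4 and 5 did. Libraries 2 and 4 also had the lowest medians of the skeletal muscle markers, at -3.62 and -3.90 from the WT mean (log2). The medians of the other 3 were -3, -2.93 and -2.96. Among the WT libraries, WT 3 was the highest for Cox7a1, Cox8b and the muscle markers, but Cox6a2 was highest in WT 5. WT 1 had a muscle marker median of -0.26 and a muscle isoform median of 0.10. In WT 4 these were -0.01 and -0.30, so markers and isoforms did not rank the WT libraries alike. The part of the muscle markers in these differences was not tested.

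Set as a ratio of the muscle form to its partner, on log2(CPM + 0.5), the Cox6a pair moved from 1.17 ± 0.33 (SD, n = 5) to -2.88 ± 0.49, a difference of -4.05. The Cox7a pair moved from -0.38 ± 0.25 to -4.02 ± 0.32, a difference of -3.64, and the Cox8 pair from -0.38 ± 0.30 to -4.17 ± 0.48, a difference of -3.79. Each gave p = 0.00794 in a two-sided exact permutation test, the smallest that 5 against 5 libraries can give, and 0.0119 when adjusted over the 6 pairs compared. All 10 libraries thus sorted by genotype in each of the 3 pairs. Such sorting was common here, as 57.0% of all genes tested also had groups without overlap. Summed per length, the muscle form made up 62.0% ± 5.39 of the Cox6a pair in WT and 9.19% ± 2.85 in Klk6+. It made up 71.8% ± 3.58 and 16.4% ± 3.00 of the Cox7a pair, and 61.8% ± 4.89 and 10.5% ± 3.29 of the Cox8 pair. The sum of both forms was 700.2 ± 29.7 FPKM in WT and 744 ± 69.9 in Klk6+ for Cox6a, and 734 ± 72.6 and 659 ± 80.0 for Cox8, with overlapping groups. For Cox7a it was 434 ± 75.4 in WT, with a lowest library of 339.7, and 226 ± 28.5 in Klk6+, with a highest of 263, so those groups did not overlap. These sums were not tested.

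**Figure D2:**
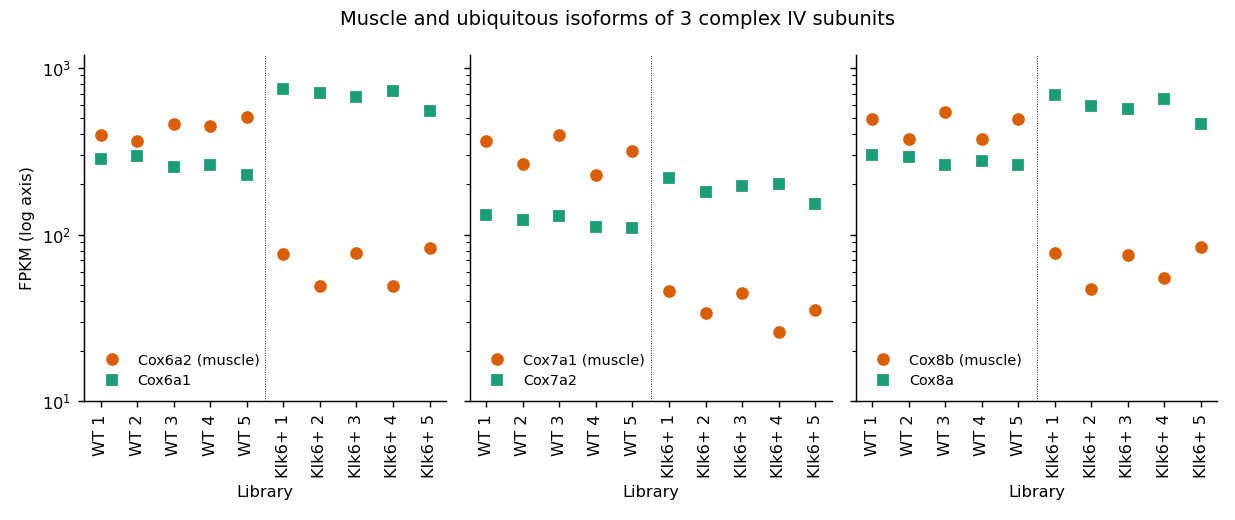
FPKM of 3 isoform pairs of complex IV in the 10 libraries, on a log axis; each point is 1 library. For Cox6a, Cox7a and Cox8 the muscle form is lower and its partner higher in all Klk6+ libraries than in any WT library.

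The other 3 pairs behaved differently. Cox4i2, an isoform best known from lung and oxygen-sensing cells, was rare, at 1.10 to 1.95 CPM in WT and 1.23 to 3.40 in Klk6+. It was called higher (log2 0.66 ± 0.26, adjusted p = 0.0412), with overlapping groups, and lost that call in 10 of 23 alternatives (adjusted p up to 0.158). The ratio to Cox4i1 differed by 0.35, with an exact permutation p of 0.0794 (adjusted 0.0794). Cox6b2, known as the testis form, measured 0.939 to 1.73 CPM in WT and 0.373 to 1.11 in Klk6+, and was not called (log2 -0.62 ± 0.31, adjusted p = 0.0910). Its ratio to Cox6b1 fell by 0.95 (exact permutation p = 0.00794, adjusted 0.0119), while Cox6b1 rose. Ndufa4l2, a paralog of Ndufa4 known as a hypoxia-induced gene, ran from 28.8 to 69.7 CPM in WT and from 27.1 to 70.8 in Klk6+ and was not called (log2 -0.23 ± 0.31, adjusted p = 0.517). Its ratio to Ndufa4 fell by 1.26 (exact permutation p = 0.0159, adjusted 0.0190), with overlapping groups.

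Of the 11 ubiquitous subunits of complex IV, 6 were higher, 1 was lower and 4 were not called, with a median log2 fold change of 0.50. The higher share was 54.5% against 37.7% of all genes, and the lower share 9.09% against 35.1%. The 6 were Cox6a1, Cox7a2, Cox8a, Cox6b1, Cox7b and Ndufa4. For all 6 the Klk6+ libraries lay above all WT libraries, which held for 30.1% of all genes. The 11 together took 0.168% ± 0.00848 of all counts of WT libraries and 0.225% ± 0.0244 in Klk6+, and the groups did not overlap. That sum leaves out the 3 muscle isoforms, whose share fell from 0.0386% ± 0.00451 in WT to 0.00545% ± 0.00127 in Klk6+. A change of complex IV as a whole was not tested. Ndufa4, the subunit with the highest mean FPKM of all members (836), measured 203, 192, 229.5, 162 and 175 CPM in WT and 399, 369, 425, 334 and 335 in Klk6+. Each Klk6+ library was far above each WT library (log2 0.96 ± 0.08, adjusted p = 4.17e-06).

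Cox6b1, a subunit at the contact between the monomers of the dimer, measured 156, 155, 175, 152 and 156 CPM in WT and 264, 222, 233, 224 and 186 in Klk6+ (log2 0.50 ± 0.09, adjusted p = 5.35e-04). Cox7b, a small membrane subunit, had 98.3 to 128 CPM in WT and 129 to 218 in Klk6+ (log2 0.62 ± 0.11, adjusted p = 5.35e-04). Cox5a was the exception: 171, 178, 198, 176 and 188 CPM in WT and 146, 141, 152, 138 and 133 in Klk6+. It was lower without overlap (log2 -0.36 ± 0.07, adjusted p = 0.00133). Cox4i1, the subunit that binds ATP as an allosteric brake, overlapped between the groups, at 311 to 349 CPM in WT and 294 to 434 in Klk6+ (log2 0.14 ± 0.10, adjusted p = 0.240). The others not called were Cox5b (0.19 ± 0.09), Cox6c (-0.07 ± 0.07) and Cox7c (0.06 ± 0.10).

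Complex II, succinate dehydrogenase, also serves the citrate cycle, and 3 of its 4 subunits (75%) were lower, against 35.1% of all genes. Sdha, the flavoprotein that oxidises succinate (chr13:74322254-74350280, minus strand), measured 387, 419, 487, 381 and 431 CPM in WT and 302, 274, 267, 259 and 255 in Klk6+. Sdhb, the iron-sulfur subunit (chr4:140961203-140979193, plus strand), had 172, 177, 204, 166 and 218 CPM in WT and 134, 113, 118, 116 and 96.3 in Klk6+. Sdhc, one of the pair of membrane anchors (chr1:171127165-171150603, minus strand), had 166, 166, 187, 159 and 163 CPM in WT and 127, 113, 108, 113 and 87.4 in Klk6+. All WT libraries were above all Klk6+ libraries for these 3, which held for 27.0% of all genes. Their log2 fold changes were -0.63 ± 0.09, -0.70 ± 0.11 and -0.62 ± 0.09 (adjusted p = 1.16e-04, 2.66e-04 and 1.72e-04). The other anchor, Sdhd (chr9:50596357-50603812, minus strand), was at 131, 134, 159, 137 and 155 CPM in WT and 155, 129, 155, 149 and 134 in Klk6+. Its means were 143 ± 13.0 and 144 ± 11.8 CPM, with a log2 fold change of 0.01 ± 0.09 (adjusted p = 0.908). The share of the complex in the counts was 0.0936% ± 0.00726 in WT and 0.0629% ± 0.00507 in Klk6+, without overlap.

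**Figure D3:**
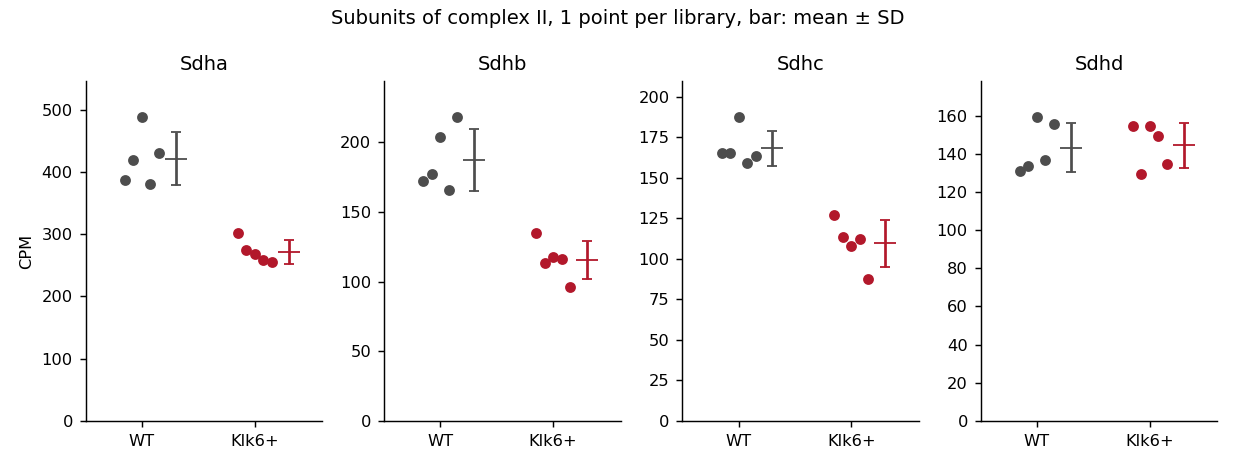
CPM of the 4 complex II subunits in each library, with the group mean and SD. Sdha, Sdhb and Sdhc are lower in all 5 Klk6+ libraries than in any WT library, and Sdhd overlaps.

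In complex I few subunits were higher. Of its 36 subunits, 15 were lower, 2 higher and 19 not called, with a median of -0.18 and a range of -0.81 to 0.24. The lower share, 41.7%, was near the 35.1% of all genes, and the higher share was 5.56% against 37.7%. For 9 of the lower ones the groups did not overlap, a share of 25% against 27.0% of all genes, and for 0 of the higher ones. Without WT 3 and Klk6+ 5, a choice that itself moves members toward higher, 10 were lower and 5 higher. Of the 7 core subunits, which carry the flavin and iron-sulfur clusters, 4 were lower and 0 higher, and of the 29 accessory subunits 11 were lower and 2 higher. The share in the counts was 0.331% ± 0.0216 in WT and 0.281% ± 0.0341 in Klk6+, and here the groups overlapped. Klk6+ 1 was at 0.329%, inside the WT range.

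Ndufa13, an accessory subunit first described as the cell-death gene GRIM-19, had the lowest fold change in the complex. It measured 102, 95.5, 111, 98.4 and 102 CPM in WT and 68.5, 57.9, 57.3, 62.3 and 45.3 in Klk6+ (log2 -0.81 ± 0.10, adjusted p = 5.55e-05), and the groups did not overlap. Ndufa6, an accessory subunit of the LYR family, followed at 69.7 to 82.4 CPM in WT and 39.3 to 57.1 in Klk6+ (log2 -0.74 ± 0.10, adjusted p = 6.76e-05). Among the core subunits, Ndufs7 was lowest, with 81.9 to 100.3 CPM in WT and 50.9 to 74.98 in Klk6+ (log2 -0.48 ± 0.10, adjusted p = 0.00111), without overlap. Ndufs3 and Ndufs1 were also called lower, at log2 -0.32 and -0.27, both with overlapping groups. Ndufs8, with the highest fold change, was not called, at 57.6 to 67.0 CPM in WT and 55.1 to 87.7 in Klk6+ (log2 0.24 ± 0.11, adjusted p = 0.0710).

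The 2 complex I genes called higher were accessory subunits with overlapping groups. Ndufab1, the mitochondrial acyl carrier protein, had 53.4, 57.2, 60.8, 50.7 and 56.0 CPM in WT and 70.1, 65.3, 63.9, 65.6 and 54.8 in Klk6+ (log2 0.20 ± 0.08, adjusted p = 0.0373). Ndufb6, a membrane-arm subunit, had 40.5 to 54.0 CPM in WT and 47.9 to 65.1 in Klk6+ (log2 0.22 ± 0.08, adjusted p = 0.0233). Under library-total or upper-quartile scaling neither was called. Of the 3 complex I subunits with the highest mean FPKM, Ndufb9 and Ndufb8 were not called (log2 -0.20 ± 0.11 and -0.04 ± 0.11, adjusted p = 0.115 and 0.740). The third, Ndufa3, was called lower at 45.2 to 56.5 CPM in WT and 35.0 to 50.8 in Klk6+ (log2 -0.29 ± 0.10, adjusted p = 0.0253), with overlap.

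Ndufs5, a subunit of the intermembrane-space side, stood out for its low count. It had 1.71 to 2.42 CPM in WT and 1.33 to 2.44 in Klk6+, while the next lowest ubiquitous subunit averaged 43.8 CPM. Its deposited FPKM was ordinary, at 88.3 ± 11.9 in WT and 78.5 ± 19.0 in Klk6+. The ratio of count to FPKM would correspond to a length of 23.6 bases, against a median of 520.0 over the ubiquitous subunits and 111 for the next lowest, Atp5k. So the authors' counts and FPKM do not describe the same amount of Ndufs5 RNA, and its value (log2 -0.17 ± 0.21, adjusted p = 0.466) rests on few counts.

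Complex III had small changes, and the groups overlapped for all 8 subunits taken by symbol. Its redox subunit cytochrome c1, Cyc1, falls outside the symbol pattern and was higher without overlap, as given below. Of the 8, 3 were higher, 1 lower and 4 not called, with a median of 0.12. The higher share, 37.5%, is that of all genes (37.7%), and the lower share was 12.5% against 35.1%. Uqcrq, Uqcr10 and Uqcr11, all small subunits without a redox centre, were higher. Uqcrq measured 122, 120.3, 115, 99.7 and 115 CPM in WT and 176, 170.0, 157, 158 and 120.2 in Klk6+ (log2 0.45 ± 0.09, adjusted p = 0.00143). Only Klk6+ 5 lay within the WT range. Uqcr10 had 67.7 to 80.3 CPM in WT and 78.8 to 118 in Klk6+ (log2 0.45 ± 0.10, adjusted p = 0.00197), and Uqcr11 80.8 to 100.3 and 96.3 to 143 (log2 0.40 ± 0.10, adjusted p = 0.00345). The subunit called lower was Uqcrb, which lies at the ubiquinone site, at 111 to 149.6 CPM in WT and 95.9 to 125 in Klk6+ (log2 -0.23 ± 0.08, adjusted p = 0.0252). The large core proteins Uqcrc1 and Uqcrc2 and the Rieske iron-sulfur protein Uqcrfs1 had log2 values of -0.04 ± 0.07, 0.01 ± 0.09 and 0.06 ± 0.07 and were not called, nor was the hinge protein Uqcrh (0.17 ± 0.11).

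Of the 15 complex V subunits, 5 were higher, 3 lower and 7 not called, with a median of 0.11. Both shares, 33.3% higher and 20% lower, were below those of all genes (37.7% and 35.1%). The groups did not overlap for 2, both higher. The 3 genes of the c ring, which code for the same mature protein, were split. Atp5g3 was higher, with 312, 308, 347, 272 and 301 CPM in WT and 559, 507, 508, 525 and 373 in Klk6+ (log2 0.68 ± 0.11, adjusted p = 2.13e-04). Atp5g1 was called lower, at 179.7 to 206 CPM in WT and 147 to 189 in Klk6+, with overlap (log2 -0.20 ± 0.08, adjusted p = 0.0414). Atp5g2 was not called, at 188 to 203 and 157 to 216 CPM (log2 -0.10 ± 0.09, adjusted p = 0.357). In the F1 head and its central stalk, 2 of 5 rose and 2 fell. Atp5b, the catalytic beta subunit and the member with the most counts, had 1451, 1496, 1657, 1276 and 1456 CPM in WT and 1866, 1822, 1917, 1794 and 1536 in Klk6+. Klk6+ 5 lay within the WT range (log2 0.28 ± 0.09, adjusted p = 0.0197).

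Atp5d, the delta subunit, had 190.2 to 209 CPM in WT and 223 to 304 in Klk6+, without overlap (log2 0.41 ± 0.08, adjusted p = 0.00132). The gamma and epsilon subunits, Atp5c1 and Atp5e, were called lower (log2 -0.26 ± 0.09 and -0.29 ± 0.09, adjusted p = 0.0303 and 0.0171), both with overlap. Atp5a1, the alpha subunit, was not called (log2 0.08 ± 0.09, adjusted p = 0.436). The small membrane subunits Atp5k and Atp5l were called higher (log2 0.24 ± 0.08 and 0.31 ± 0.11, adjusted p = 0.0175 and 0.0263), and the 4 peripheral stalk subunits were not called. Most of these calls were near the threshold. Without WT 5 or without Klk6+ 2 the lower calls in complex V numbered 1, and without WT 1, WT 2 or Klk6+ 4 the higher ones numbered 2. Without both WT 3 and Klk6+ 5, a choice that itself moves members toward higher, there were 0 lower and 6 higher.

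The 11 assembly factors and other proteins held the last member past a log2 fold change of 1. Ndufaf2, a late-acting complex I assembly factor, had 5.83, 7.94, 6.91, 5.91 and 5.73 CPM in WT and 13.6, 11.9, 14.7, 16.0 and 11.9 in Klk6+ (log2 1.08 ± 0.14, adjusted p = 6.16e-05). Ndufaf4, which acts early in the same assembly, had 16.9 to 22.8 CPM in WT and 33.1 to 38.9 in Klk6+ (log2 0.92 ± 0.10, adjusted p = 1.98e-05). Both were higher without overlap, although most complex I subunits that changed were lower. Ndufaf5, which hydroxylates Ndufs7, was lower, with 14.6 to 19.4 CPM in WT and 8.83 to 11.7 in Klk6+ (log2 -0.64 ± 0.12, adjusted p = 8.98e-04). The other 4 Ndufaf genes were not called. Atp5sl (log2 -0.62 ± 0.12), Cox7a2l, which takes part in supercomplex formation (-0.40 ± 0.15), and Atp5s (-0.45 ± 0.17) were called lower (adjusted p = 9.19e-04, 0.0299 and 0.0342).

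The order of the complexes was alike in the Klk6+ libraries. In each of the 5, the median of complex II was lowest, complex I next, complexes III and V above it and complex IV highest. In Klk6+ 1, which had the highest member levels, the medians were -0.43 for complex II, 0.09 for I, 0.30 for III, 0.26 for V and 0.73 for IV, as log2 difference from the WT mean. In Klk6+ 5, which had the lowest, they were -0.83, -0.46, -0.13, -0.16 and 0.23. In the WT libraries the medians of the 5 complexes lay between -0.18 and 0.16. The median of the muscle isoforms lay between -3.18 and -2.42 in the Klk6+ libraries and between -0.30 and 0.28 in WT. The subunits varied more between Klk6+ libraries, with a median coefficient of variation of 12.4%, against 7.69% in WT. The Klk6+ value includes the high levels of Klk6+ 1 and the low ones of Klk6+ 5. No such value was computed over all genes.

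**Figure D4:**
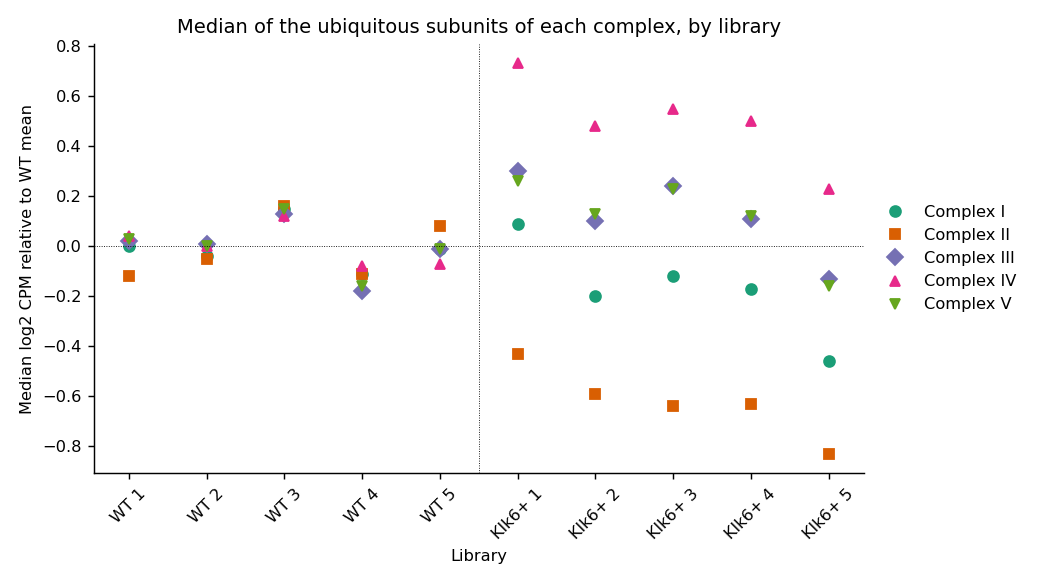
Median log2 difference from the WT mean for the ubiquitous subunits of each complex, 1 point per complex and library. In Klk6+ complex II lies between -0.83 and -0.43 and complex IV between 0.23 and 0.73, and in WT all 5 complexes lie close to 0.

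Fitted within each sex, the pattern by complex was the same in its main parts. In males 20 members were called lower and 15 higher, against 31.0% and 33.4% of all genes (64.4% in all). In females 21 were lower and 9 higher, against 28.4% and 31.2% (59.6% in all). All 3 muscle isoforms and the 3 complex II subunits were lower in both sexes, and 6 complex IV subunits were higher and 1 lower in both. Complex I had 10 subunits lower in each sex. In complex III, 3 were higher in males and 0 in females in edgeR, where 3 had an unadjusted p under 0.05. For the difference between the sexes itself, 0 members were called (background 0.0% of 14861 genes). At an unadjusted p under 0.05 there were 0 members and 1410 genes in the edgeR interaction test, the one tool run for it.

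Other genes of mitochondrial energy metabolism were read from lists, each set beside the 35.1% lower and 37.7% higher of all genes. Of 7 electron carriers and small subunits outside the symbol pattern, 4 were higher and 0 lower. They included Cyc1, cytochrome c1 of complex III (191 ± 17.7 to 255 ± 21.5 CPM, log2 0.42 ± 0.08, adjusted p = 0.00123, without overlap), whereas cytochrome c itself, Cycs, had 0.01 ± 0.10. A list of 37 further genes tested held assembly factors and the ATP synthase inhibitor Atpif1. Of these 37, 11 were higher, Atpif1 among them, and 7 lower. Acad9, a complex I assembly factor, was highest (105 ± 29.1 to 381 ± 122 CPM, log2 1.87 ± 0.21, adjusted p = 2.13e-05). Foxred1, which also acts on complex I, and Atpaf2, a chaperone of the F1 head, rose by 0.92 ± 0.09 and 0.93 ± 0.09 on the log2 scale (adjusted p = 6.34e-06 and 1.18e-05). The citrate cycle and pyruvate dehydrogenase leaned lower like complex II, with 8 of 16 lower and 1 higher. Ogdh, of the oxoglutarate dehydrogenase complex, and Sucla2, a succinyl-CoA ligase subunit, were lower by log2 values of -0.75 ± 0.10 and -0.79 ± 0.08 (adjusted p = 5.76e-05 and 1.35e-05). The gene that rose was Cs, citrate synthase (log2 0.44 ± 0.12, adjusted p = 0.00599).

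Of 77 genes for proteins of the mitochondrial ribosome, which makes the subunits encoded in the mitochondrial genome, 59 were higher and 4 lower, with a median of 0.53. Those of smallest p were Mrpl20 (log2 1.28 ± 0.08, adjusted p = 7.38e-07), Mrpl36 (0.95 ± 0.06, adjusted p = 1.08e-06), whose exons overlap the complex I gene Ndufs6, and Mrps26 (0.93 ± 0.06, adjusted p = 1.15e-06). Import, outer membrane and chaperone genes were higher in 11 of 14, led by the import channel Tomm40 (32.4 ± 5.68 to 118 ± 11.0 CPM, log2 1.87 ± 0.10, adjusted p = 3.97e-07). The 2 lower were the outer-membrane channels Vdac1 (-0.79 ± 0.10) and Vdac3 (-1.08 ± 0.10). Of 13 regulators of mitochondrial biogenesis, 5 were higher and 2 lower. Ppargc1a, the coactivator PGC-1alpha, fell from 13.3 ± 1.15 to 4.06 ± 2.00 CPM (log2 -1.74 ± 0.26, adjusted p = 1.77e-04), and its relative Pprc1 rose (log2 1.19 ± 0.12, adjusted p = 1.31e-05). Nrf1, a factor whose motif was searched above, rose from 23.2 ± 1.87 to 32.6 ± 2.72 CPM (log2 0.49 ± 0.08, adjusted p = 3.86e-04). Gabpa, whose ETS motif was searched as well, was not called (log2 0.15 ± 0.07, adjusted p = 0.0693). A link between these factors and the matches was not tested. Of 15 glycolysis genes, 7 were higher and 7 lower. Their summed share of the counts was lower, at 1.81% ± 0.219 in WT and 0.934% ± 0.107 in Klk6+, without overlap. Of the phosphofructokinase genes, Pfkm, the muscle form, fell (log2 -3.36 ± 0.21, adjusted p = 7.38e-07) and Pfkl, the liver form, rose (log2 1.82 ± 0.12, adjusted p = 8.28e-07). Other genes on the list also went both ways, with Gapdh lower (-1.04 ± 0.13) and Pgam1 higher (2.25 ± 0.12).

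**Figure D5:**
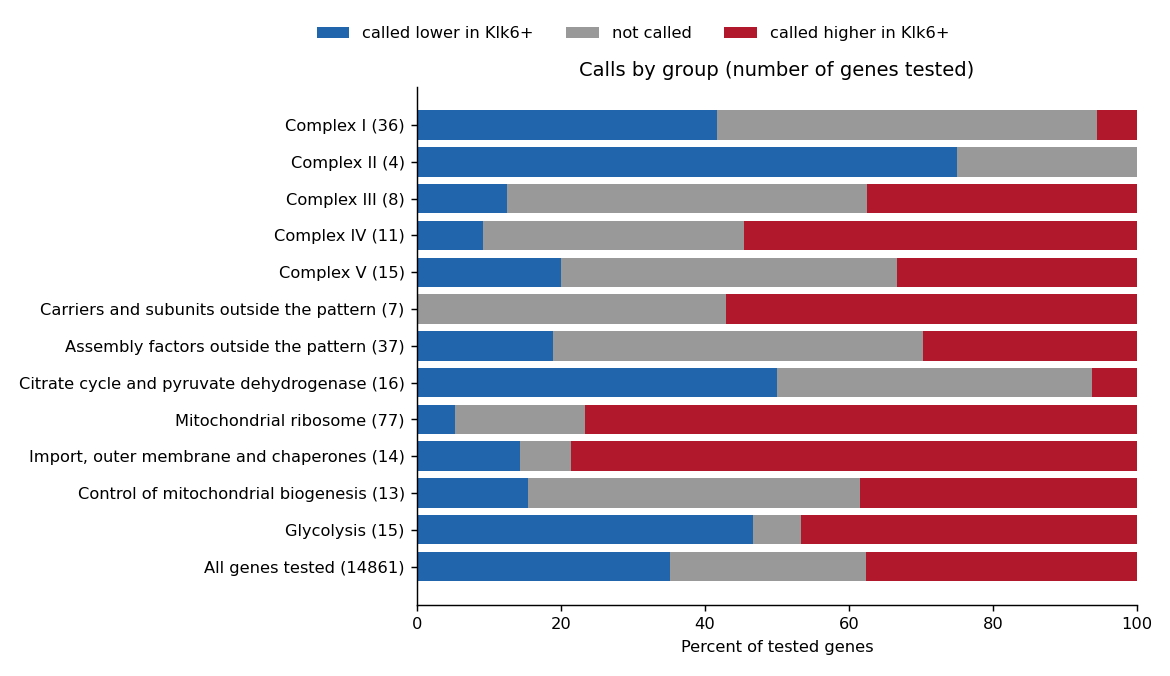
Share of tested genes called lower or higher in Klk6+ for each complex and each list of other mitochondrial and glycolysis genes, beside all genes tested. The mitochondrial ribosome (59 of 77 higher) and the ubiquitous subunits of complex IV (6 of 11 higher) lean up. Complex II (3 of 4 lower) and the citrate cycle (8 of 16 lower) lean down.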

How the data were processed

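Whole-skin RNA of 5 WT and 5 Klk6+ libraries (polyA-selected, 50-cycle single-end reads per the labels) was read from tables deposited by the authors, which give for each gene a count and an FPKM value. The submitters' processing notes name TopHat2, SAMtools, HTSeq, Cufflinks 2.2.1 and GRCm38/mm10. The roles of the tools, the annotation, the strand setting and the handling of reads with several matches: not given in the sources used here. The exons of 32 of the 89 members found in GENCODE M21 overlap another gene, among them Cox6a2, Ndufa13, Ndufb11, Cox5a, Cox4i1 and Atp5d, so their reads could have been shared.

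Counts of all 20611 genes were filtered (filterByExpr, minimum count 10), scaled by TMM and fitted in edgeR 4.0.16 (R 4.3.3) with genotype and sex. The quasi-likelihood test was used, with Benjamini-Hochberg adjustment over 14861 genes and a threshold of 0.05, and log2 fold changes are Klk6+ over WT with standard errors. A second fit gave the sexes and their difference. CPM are TMM-scaled, with mean ± SD over 5 libraries. The deposited FPKM served to compare genes with each other and as an alternative. Pair ratios used log2(CPM + 0.5) and two-sided exact permutation tests. Alternatives used DESeq2 1.42.0 and limma 3.58.1, and the fits were tested on simulated data. No pair of libraries was a repeat of 1 library.

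Genes named with values were all of complex II and of the isoform pairs, in each other complex the 3 of highest mean FPKM, the lowest and highest fold change and calls against the majority, the 3 assembly factors of smallest p, and 3 of smallest p per list. Further genes, such as Cox5b, Cox6c, Cox7c, Ndufs1, Ndufs3, Ndufs7, Atp5d, Atp5l, Cox7a2l, Cycs, Nrf1 and Gabpa, were named after their values were seen. Some genes that meet the rule are not reported here. The members and lists were chosen with earlier results of these data known. Promoter sequences are from RefSeq (GRCm38.p6) and gene positions from GENCODE M21.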

Additional observations from a re-analysis of the deposited data

Results flagged for a closer look

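In 10 of 178 sets of a member and a group, 1 library lay far from the other 4 by Dixon's test, which flags about 1 in 20 sets by chance. WT 3 was high in 4 of them: Ndufc1 (72.25 CPM, others 53.8 to 58.5), Sdhc (187.4, others 159 to 166), Cox6b1 (175.0, others 152 to 156) and Atp5k (82.68, others 68.6 to 72.0). Klk6+ 5 was low in 4: Ndufc1 (37.82 CPM, others 46.0 to 48.8), Cox6a1 (205.3, others 264 to 285), Atp5a1 (1087, others 1300.2 to 1376) and Atp5g3 (372.6, others 507 to 559). The remaining 2 were Atp5g1 in WT 4 (179.7 CPM, others 201 to 206) and Ndufaf7 in Klk6+ 1 (22.47, others 17.2 to 17.9).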

How the results depend on the processing

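The genotype fit was run under 23 alternatives, of which leaving out WT 3 and Klk6+ 5 together, with or without Klk6+ 1, was chosen after seeing the data. No member was called in the opposite direction in any of them. Of the members called lower, 19 of 30 kept the call under all 23, and of those called higher 13 of 19. These include the 3 muscle isoforms, Sdha, Sdhb, Sdhc and all 7 complex IV calls. In complex I 10 of 15 lower calls were kept and 0 of 2 higher ones, and in complex V 2 of 8 calls. The lower calls ranged from 20 (without Klk6+ 2, or without both libraries) to 35, the higher ones from 13 to 25, and the median over members from -0.18 to 0.01. Leaving out 1 library at a time gave 19 to 37 called members in females, against 30, with the lowest without WT 5 (a lone female library is then assumed to vary like the other groups), and a difference of the Cox4i2 to Cox4i1 ratio of 0.27 to 0.45. That ratio passed the threshold without WT 1 (0.45) and without Klk6+ 5 (0.43). The causes were not tested. Complexes III and V kept medians of 0.00 or more under each alternative, and the median of all genes moved to at most -0.06. No paired analysis was possible because the labels give no replicate number shared by the genotypes: the numbers 1 to 5 used here only name the libraries. Depth limits Cox4i2, Cox6b2 and Ndufs5, which had few counts, and small changes near the threshold.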
